A study of Mus musculus with 18 samples.

Results

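Gene expression in bone marrow-derived macrophages that lack IRF4 was compared with that in heterozygous macrophages over every culture condition of the study. All 18 of 18 samples entered, 9 titled Irf4-/- and 9 titled Irf4+/-, each measured on 1 single-colour Agilent array, and they were chosen by genotype alone. The cells came from C57BL6/J mice of 8 to 12 weeks and were grown with human recombinant CSF1 at 200 ng/ml. On day 7 mouse recombinant IL-4 was added to 10 ng/ml and left for 4 h or 18 h, while mock cells went 18 h without it, so each genotype has 3 arrays per condition. Mock was taken at 18 h only. The letters A, B and C mark 3 independent experiments with littermates, and in each experiment cells of several animals of a genotype were pooled, which gives 3 cell pools per genotype. The control genotype carries 1 disrupted Irf4 allele, so every value below is a difference between no and 1 intact allele, not between no allele and the wild type.

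IRF4 is a transcription factor of the interferon regulatory factor family. It binds DNA weakly alone and strongly with a partner, either the Ets factors PU.1 and Spi-B or the AP-1 factors of the BATF group, and it is best known for its part in B-cell, plasma cell, dendritic cell and T-helper differentiation and in the macrophage response to IL-4. MHC class II molecules present peptides from endocytosed protein to CD4 T cells, and the coactivator CIITA, which does not itself bind DNA, is recruited to class II promoters by factors bound at the X and Y boxes.

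Because the results turn on class II genes, the promoters of H2-Aa, H2-Eb1 and H2-DMb1, which hold the X box, the Y box or both, are shown here. The sequences come from RefSeq (GRCm38.p6), run from 250 bases before to 50 bases after the start of the gene, and are written 5′ to 3′ on the gene's strand with X and Y boxes in capitals.
H2-Aa, chr17:34287774-34288073, minus strand: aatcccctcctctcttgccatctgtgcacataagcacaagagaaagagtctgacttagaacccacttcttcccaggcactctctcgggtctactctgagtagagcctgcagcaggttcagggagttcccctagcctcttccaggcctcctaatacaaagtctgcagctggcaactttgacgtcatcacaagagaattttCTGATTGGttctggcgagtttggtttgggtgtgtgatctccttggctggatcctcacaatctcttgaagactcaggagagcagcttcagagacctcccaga
H2-Eb1, chr17:34305617-34305916, plus strand: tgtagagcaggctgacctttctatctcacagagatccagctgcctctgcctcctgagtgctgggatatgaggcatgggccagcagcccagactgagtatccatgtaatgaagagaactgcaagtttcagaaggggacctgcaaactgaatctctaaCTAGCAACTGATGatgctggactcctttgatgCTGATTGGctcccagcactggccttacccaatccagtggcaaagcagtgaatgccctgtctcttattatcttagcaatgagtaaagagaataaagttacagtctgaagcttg
H2-DMb1, chr17:34152941-34153240, plus strand: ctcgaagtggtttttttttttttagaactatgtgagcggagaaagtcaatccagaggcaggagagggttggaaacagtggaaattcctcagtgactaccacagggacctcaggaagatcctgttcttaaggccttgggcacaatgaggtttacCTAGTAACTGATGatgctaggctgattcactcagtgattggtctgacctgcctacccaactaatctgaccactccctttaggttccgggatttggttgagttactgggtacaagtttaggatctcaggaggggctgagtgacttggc
Tnfrsf13c, a called gene detected only in Irf4+/- cells, is shown for comparison.
Tnfrsf13c, chr15:82224331-82224630, minus strand: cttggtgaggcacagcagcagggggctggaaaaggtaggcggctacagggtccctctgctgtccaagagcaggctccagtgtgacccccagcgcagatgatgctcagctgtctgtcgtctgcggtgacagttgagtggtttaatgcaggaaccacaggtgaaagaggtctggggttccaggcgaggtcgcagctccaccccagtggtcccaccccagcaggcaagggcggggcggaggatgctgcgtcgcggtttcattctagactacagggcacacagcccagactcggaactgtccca
The X box was searched as CTAGNAACNGATG and the Y box as CTGATTGG, on both strands. The X box stood in 0.0304% of 32851 promoters of this length and the Y box in 4.1%. Of the 11 genes of the class II list with a promoter in the table, 2 held the X box and 3 the Y box, and not all with a Y box are shown. The class II list also holds accessory genes such as Ctss and Marchf1. Ciita, H2-Ab1 and Cd74 had no promoter in the table, so they were not searched. In H2-Eb1 both boxes were found, the X box first. H2-DMb1 held an X box and no exact Y box, and H2-Aa a Y box and no exact X box. The Tnfrsf13c window held neither, nor any motif searched for IRF4 or STAT6. The Ets-IRF composite element (GGAANNGAAA) was present in 2.72% of promoters and the STAT6 site (TTCNNNNGAA) in 6.95%. Neither occurred in the promoters of those 11 genes, and the core of the interferon-stimulated response element (GAAANNGAAA, 3.44% of promoters) occurred in 1. These are matches of letters and not measured binding.

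Several checks of the arrays preceded the comparison. Expression is given as log2 of the spot intensity minus the array's 75th percentile, which is 0 on this scale. The single Irf4 probe was no lower in the Irf4-/- arrays, which ran from -0.97 through a median of 1.25 to 2.14, than in the Irf4+/- arrays, which ran from -1.80 through 1.07 to 2.26. The difference was 0.21 ± 0.19 (mean and standard error, n = 3 experiments), and whether the probe lies in the deleted part is not known here, so it does not test the genotype labels. Every sample is labelled as coming from 2 males and 1 female, but Xist, the RNA made from the inactive X chromosome, lay between -8.77 and -4.65 on all 6 arrays of experiment B, against -1.08 to 1.93 in A and C. Experiment B therefore goes against that label in both genotypes. In C, Xist lay 1.64 lower in the Irf4-/- pool and the Y-linked genes Uty and Eif2s3y 1.24 and 1.02 higher. In A, the other Xist probes each lay 1.24 higher in the Irf4-/- pool, while the Y-linked genes Eif2s3y and Kdm5d differed by 0.22 and -0.03. The part of sex in the genotype differences was not tested. Of 20 macrophage markers all were detected, and their summed level was 1135 to 1802 times the 75th percentile in Irf4+/- and 869 to 1862 times in Irf4-/-. The arrays lay on 7 slides read on 3 days. In A and B each genotype had a slide of its own, and in A also a day of its own, so slide and genotype cannot be told apart there. In C a slide held arrays of both genotypes, but of different conditions. Each difference within a condition in C was therefore also a difference between slides. Both genotypes were read on 1 day within B and within C.

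The unit of replication was the experiment. For each of 15081 tested genes, the Irf4-/- array was set against the Irf4+/- array of the same condition and experiment (9 differences), the 3 conditions of an experiment were averaged, and the 3 resulting values were tested with limma and Benjamini-Hochberg adjustment at 0.05. No gene was called (0% of the genes tested). The lowest adjusted p was 0.109, for Tnfrsf13c, which was not well above background on any Irf4-/- array, and 871 genes had an unadjusted p under 0.05 (329 higher and 542 lower in Irf4-/-). The 3 differences cannot reach an exact sign-flip p under 0.25. With the 18 arrays as replicates and condition, experiment and genotype in the limma model, 1756 genes were called, 897 higher (5.95%) and 859 lower (5.7%). Those p-values are too small, since the 3 arrays of a pool share their cells, and in what follows "called" means called by that array-level model unless another is named. With each array's median in place of the 75th percentile the calls split into 1121 higher and 292 lower, 79.3% higher against 51.1%, so the balance of directions depends on the scaling. With normexp background correction it made 12 calls, 3 higher and 9 lower, and with the normexp fit freed of spots far below background 934 higher and 1394 lower. With the cell pool as a random block, 0 genes were called higher (0%) and 7 lower (0.0464%). Those 7 were H2-Ab1, H2-Eb1, H2-Aa, Ciita, Smim5, Pltp and Xlr3c. The block fit used a single correlation between arrays of a pool (0.487) for all genes. Its error was counted over arrays rather than over the 3 experiments, so its p-values can also be too small.

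The 3 experiments resembled each other little. Across the 15081 genes, their differences correlated at 0.22 between A and B, -0.20 between A and C and 0.13 between B and C (Pearson, a description over genes, which are not independent). The median absolute difference was 0.30 in A, 0.22 in B and 0.16 in C. Pools of one genotype from different experiments differed by medians of 0.21 to 0.48, so pools of one genotype lay about as far apart as the genotypes of an experiment, or further. All 3 experiments put 2060 genes higher (13.7%) and 2050 lower (13.6%) in Irf4-/-. All 9 differences were higher for 518 genes (3.43%) and lower for 433 (2.87%). Of the genes that differed by at least 2-fold on average, 20 of 61 had 1 sign in all 9 differences, 5 of them higher and 15 lower. Without experiment A the array-level model called 306 genes higher (2.03%) and 453 lower (3%), without B 19 higher (0.126%) and 17 lower (0.113%), and without C 1222 higher (8.1%) and 2142 lower (14.2%).

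**Figure D1:**
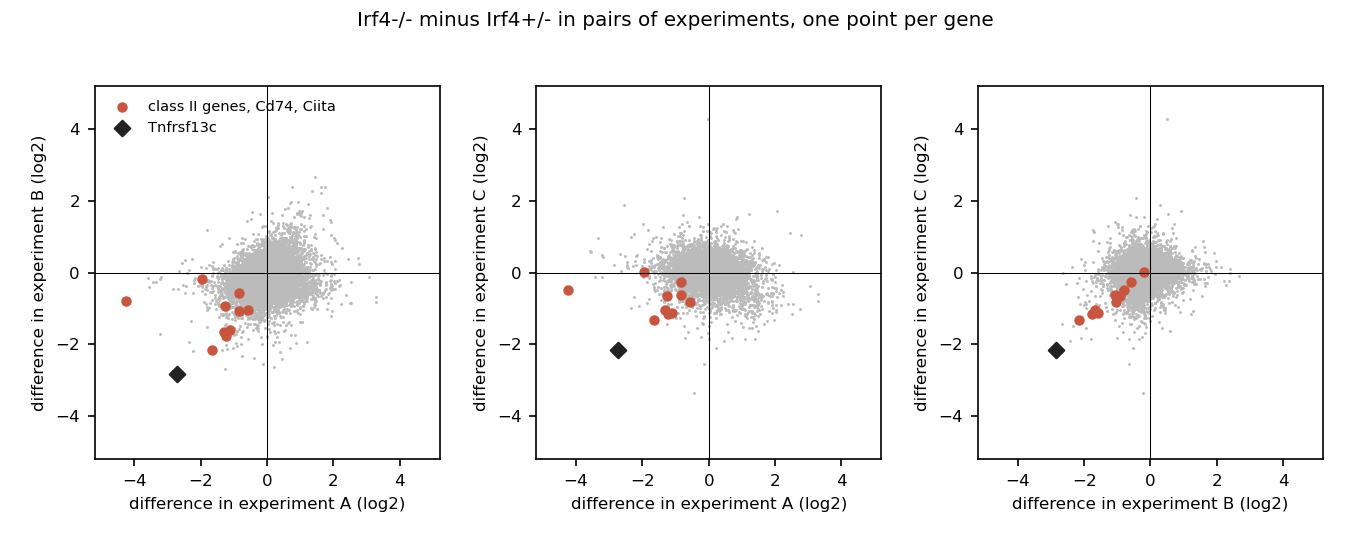
Log2 difference between Irf4-/- and Irf4+/- in one experiment (x axis) against another (y axis), for the 3 pairs of experiments, with 1 grey point per tested gene, the class II genes with Cd74 and Ciita in red and Tnfrsf13c as a black diamond. The grey clouds are nearly round (correlations 0.22, -0.20 and 0.13), while Tnfrsf13c and most red points lie below 0 on both axes.

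MHC class II presentation had the lowest median of the gene lists examined. Ciita and the classical class II chains H2-Ab1, H2-Aa and H2-Eb1 lay 2.42 to 3.27-fold lower in Irf4-/- macrophages, in each of the 9 within-experiment comparisons. Of the 14 class II genes tested of 15 listed, 13 lay lower, 9 were called lower and none was called higher, against 5.7% of all genes called lower. The median difference of the 14 was -0.83, beside -0.02 for all genes tested, and it was -0.98 in A, -0.85 in B and -0.55 in C, where B and C were each read on 1 day. The number of class II genes called was 8 without experiment A, 5 without B and 10 without C, all lower. Of all genes, 3%, 0.113% and 14.2% were called lower in those fits. In bulk RNA, fewer cells with class II transcripts and less transcript per cell cannot be told apart.

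Ciita, on chromosome 16, ran from -1.98 through a median of 0.34 to 1.95 on the 9 Irf4+/- arrays and from -3.02 through -1.01 to -0.31 on the 9 Irf4-/- arrays. The genotypes overlapped over all arrays, because experiments and conditions differ in level, but within 2 of the 3 experiments every Irf4-/- array lay below every Irf4+/- array. The mean difference was -1.71 ± 0.20, from -1.66, -2.15 and -1.32 in A, B and C (3.27-fold lower). Its adjusted p in limma was 0.741 over the 3 experiments, 0.0373 with the pool as a random block and 9.64e-05 with arrays as replicates, and over the 22 alternatives it ran from 9.64e-05 to 1.00, with values from -2.27 to -1.38.

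The chains of the classical class II molecules are encoded on chromosome 17. H2-Ab1, the I-A beta chain, ran from 3.97 through 5.30 to 6.60 in Irf4+/- and from 2.92 through 3.79 to 4.98 in Irf4-/-. H2-Aa, the I-A alpha chain, ran from 1.21 through 2.55 to 4.23 and from 0.22 through 0.91 to 2.84, and H2-Eb1, the I-E beta chain, from 1.79 through 2.98 to 4.06 and from 0.64 through 1.25 to 2.51. For all 3 genes the Irf4-/- arrays lay below the Irf4+/- arrays without overlap inside every experiment. The differences were -1.33 ± 0.17 for H2-Ab1 (-1.30, -1.66 and -1.04 in A, B and C), -1.27 ± 0.17 for H2-Aa (-1.11, -1.59 and -1.12) and -1.39 ± 0.18 for H2-Eb1 (-1.24, -1.77 and -1.16). The other probes of H2-Ab1 gave -1.38 to -1.54, and that of H2-Aa -1.47. With the pool as a random block their adjusted p in limma was 0.00102 for H2-Ab1 and H2-Eb1 and 0.00318 for H2-Aa, and over the 3 experiments 0.741 for each. With the slide as a random block, which likewise counts error over arrays, it was 0.000107 for H2-Ab1 and H2-Eb1 and 0.000204 for H2-Aa. Over their alternatives the adjusted p ran from 4.17e-06 for H2-Ab1 and H2-Eb1, and from 6.30e-06 for H2-Aa, to 1.00, while no alternative moved a difference above -1.12. H2-Ea, the I-E alpha chain, which is silent in the haplotype of this strain, was too dim to test.

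**Figure D2:**
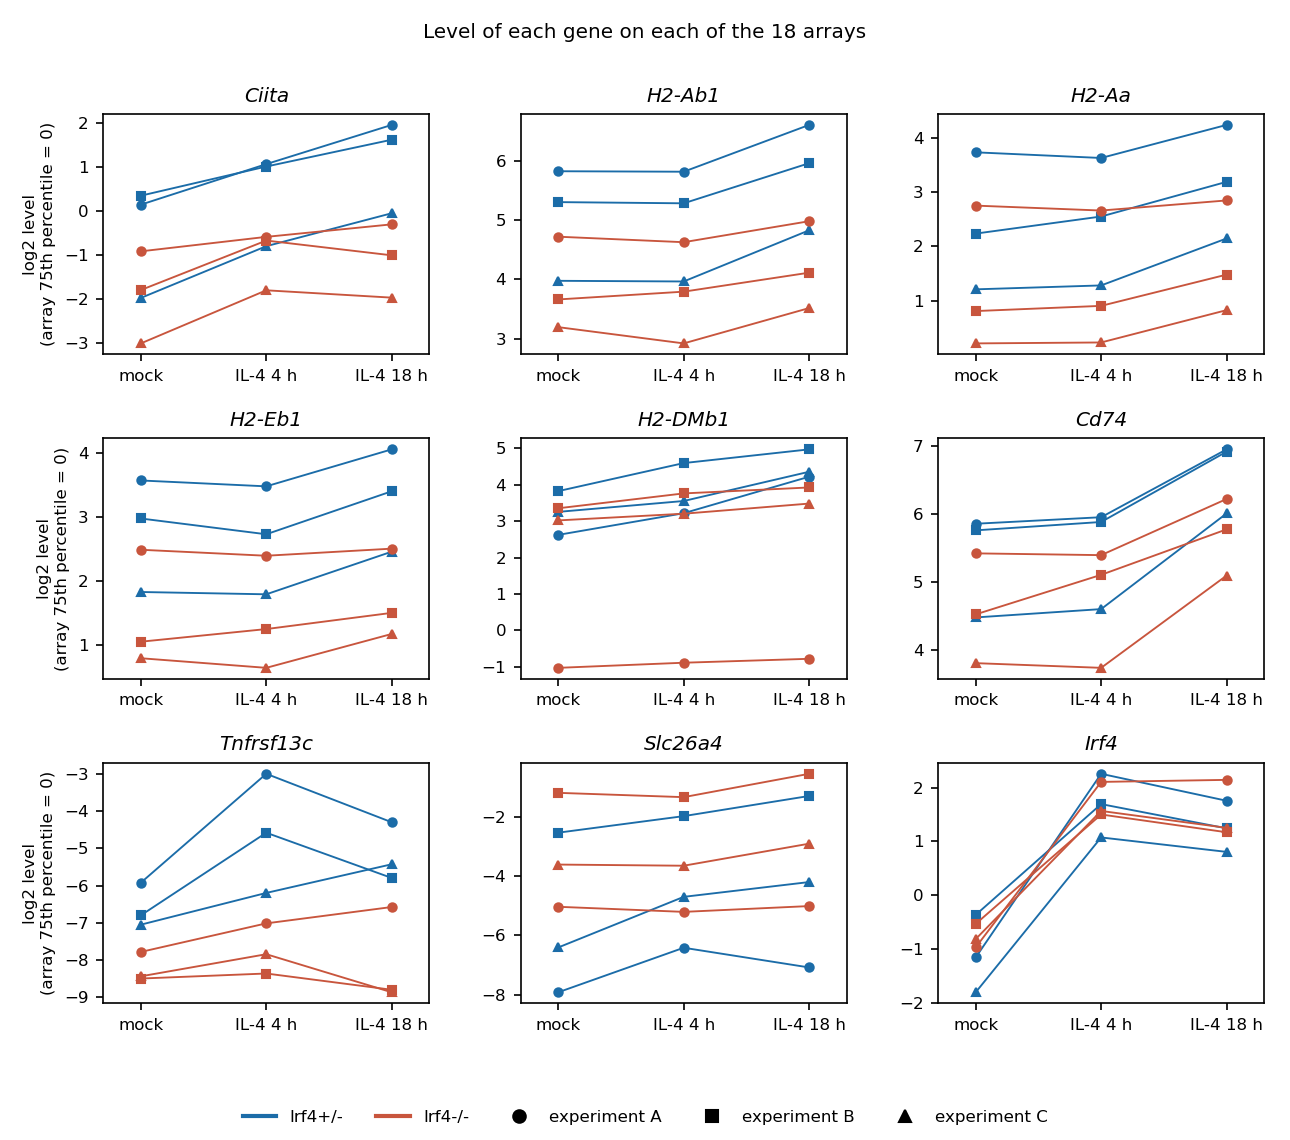
Log2 level (y axis, array 75th percentile = 0) of 9 genes in mock, IL-4 4 h and IL-4 18 h cultures (x axis), with 1 point per array, colour for genotype and marker shape for experiment. For Ciita, H2-Ab1, H2-Aa and H2-Eb1 each Irf4-/- line lies below the Irf4+/- line of its experiment, H2-DMb1 lies far lower in the Irf4-/- pool of experiment A than on the other 15 arrays, and the Irf4 probe shows no loss in Irf4-/-.

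The peptide-loading genes of the same pathway lay lower by smaller amounts. Cd74, the invariant chain that guides class II molecules to endosomes, ran from 4.48 through 5.88 to 6.95 in Irf4+/- and from 3.74 through 5.11 to 6.22 in Irf4-/-, a difference of -0.81 ± 0.16 (-0.57, -1.05 and -0.82). H2-DMa and H2-DMb2, chains of the DM peptide exchanger, differed by -0.84 ± 0.16 and -0.94 ± 0.17, and H2-Oa, a chain of the DM inhibitor DO, by -0.56 ± 0.17. All 4 were called. H2-DMb1 stood apart: its mean of -1.84 ± 0.71 came from -4.25 in A, -0.78 in B and -0.49 in C. The 3 Irf4-/- arrays of A lay at -1.02, -0.88 and -0.78, and the other 15 arrays between 2.62 and 4.97. Without A the difference of H2-DMb1 was -0.63. H2-Ob, the other DO chain, was again lower mainly in A (-1.95, -0.18 and 0.03) and was not called. The lysosomal protease Ctss (-0.17 ± 0.20), the thiol reductase Ifi30 (-0.08 ± 0.16), and the ubiquitin ligases Marchf1 (-0.25 ± 0.19) and Marchf8 (0.11 ± 0.15) were not called. For the class I presentation list the median was -0.25 over 17 genes, and 1 was called lower (5.88%, against 5.7% of all genes). Its peptide transporter gene Tap1 differed by -0.31 ± 0.15 and was not called.

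Other cells of a marrow culture also carry class II, and their markers were counted beside this group. Conventional dendritic cell markers had a median of -0.27 over 13 of 14 tested genes (-0.30, -0.47 and 0.02 in A, B and C). Dpp4 (-0.79 ± 0.15), Batf3 (-0.75 ± 0.21) and Itgae (-0.32 ± 0.15) were called lower (23.1%, against 5.7% of all genes). The summed level of the list was 54.8 to 94.7 times the 75th percentile in Irf4+/- and 55.3 to 86.1 times in Irf4-/-. B-lineage markers had a median of -0.21 over 13 of 17 tested genes (-0.20, -0.38 and 0.08), 12 of them below 0. Fcrla (-0.84 ± 0.31) and Cd79b (-0.52 ± 0.23) were called lower (15.4%, against 5.7% of all genes). The defining B-lineage genes Pax5, Ebf1, Igll1 and Rag1 were too dim to test, and the summed level was 45.9 to 102 times in Irf4+/- and 45.6 to 93.2 times in Irf4-/-. Macrophage markers had a median of -0.12 over 20 genes (-0.54, -0.01 and 0.12), 15 of them below 0 and 5 above. Maf had the largest difference above 0 (0.59 ± 0.22, other probes -0.26 to 0.20) and was not called. Cebpa (-0.48), Csf1r (-0.40, other probes -0.64 and -0.61), Mertk (-0.33) and Spi1, which encodes PU.1 (-0.29), were called lower. These were 20% of the list, against 5.7% of all genes. None of these 4 was called without A, nor without B. Of the 13 dendritic cell markers, 1 was called lower without A, 0 without B and 8 without C. Of the 13 B-lineage markers, 0, 0 and 7 were. Of all genes, 3%, 0.113% and 14.2% were called lower in those fits. Without C, 2 dendritic cell markers were called higher, where 8.1% of all genes were. In C the medians of the dendritic cell, B-lineage and class II lists were 0.02, 0.08 and -0.55, beside 0.06 for all genes tested. The called dendritic cell markers Dpp4, Batf3 and Itgae lay at -0.62, -0.23 and -0.11 in C. The called B-lineage markers Fcrla and Cd79b lay at 0.08 and -0.06 there. Ms4a1, with the largest difference of the B-lineage list, and Jchain were dim and not called. Ms4a1 differed by -0.99 ± 0.47 (-0.11, -2.54 and -0.31 in A, B and C), and another probe gave -0.14, -0.61 and -1.19. It was well above background on 8 Irf4+/- and 4 Irf4-/- arrays. Jchain differed by -0.89 ± 0.32 (-0.79, -1.79 and -0.09). The part of dendritic or B-lineage cells in the class II difference was not tested.

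Tnfrsf13c, which encodes the BAFF receptor, a survival receptor of B cells, was detected only in Irf4+/- macrophages. It ran from -7.05 through a median of -5.80 to -2.99 on the Irf4+/- arrays and from -8.88 through -8.37 to -6.58 on the Irf4-/- arrays. It was well above background on 7 of 9 Irf4+/- arrays and on 0 of 9 Irf4-/- arrays, and inside every experiment the genotypes did not overlap. Since one side is only bounded, the transcript was at least 2.16-fold higher in Irf4+/- cells, set against the lowest signal well above background of each Irf4-/- array. The measured difference was -2.58 ± 0.18 (-2.73, -2.84 and -2.16), but its Irf4-/- side is background signal, the gene was tested only because Irf4+/- arrays passed the filter, and its size is not ranked against other genes. Its adjusted p in limma was 0.109 over the 3 experiments and 0.000464 with arrays as replicates, and over the 21 alternatives it ran from 0.000162 to 1.00. Being dim, it depended on the background: with normexp correction the difference was -0.67.

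The remaining genes with all 9 differences below 0 and the lowest means were mixed in function. Ptger3, the EP3 receptor for prostaglandin E2, ran from -3.33 through -1.46 to -0.07 in Irf4+/- and from -3.75 through -3.44 to -2.29 in Irf4-/-. The genotypes did not overlap within 2 experiments, and the difference was -1.70 ± 0.32 (-2.24, -2.18 and -0.69), with -2.18 from another probe. Spib, an Ets factor that partners IRF4 at composite elements, differed by -1.13 ± 0.30 (-0.90, -2.04 and -0.45) and was well above background on 9 Irf4+/- and 6 Irf4-/- arrays, with -0.59 under normexp correction. Arg2, the mitochondrial arginase, differed by -1.68 ± 0.53, with -3.22 in A, -1.71 in B and -0.11 in C, and by -0.61 under normexp correction. Smim5, a small membrane protein, differed by -1.41 ± 0.26 (-1.22, -2.13 and -0.87), and by -0.67 with normexp correction. Cyp4f18, which hydroxylates leukotriene B4, differed by -1.01 ± 0.21, and B930095G15Rik by -1.04 ± 0.15 (-0.92, -1.08 and -1.13). B930095G15Rik was well above background on 7 Irf4+/- and 4 Irf4-/- arrays, and with normexp freed of far dim spots its difference was -0.41. Arl5c (-1.15), Cyp2a5 (-1.02) and Gnal (-1.18) were called by the probe used, while another probe gave -0.52, -0.54 and -0.12.

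**Figure D3:**
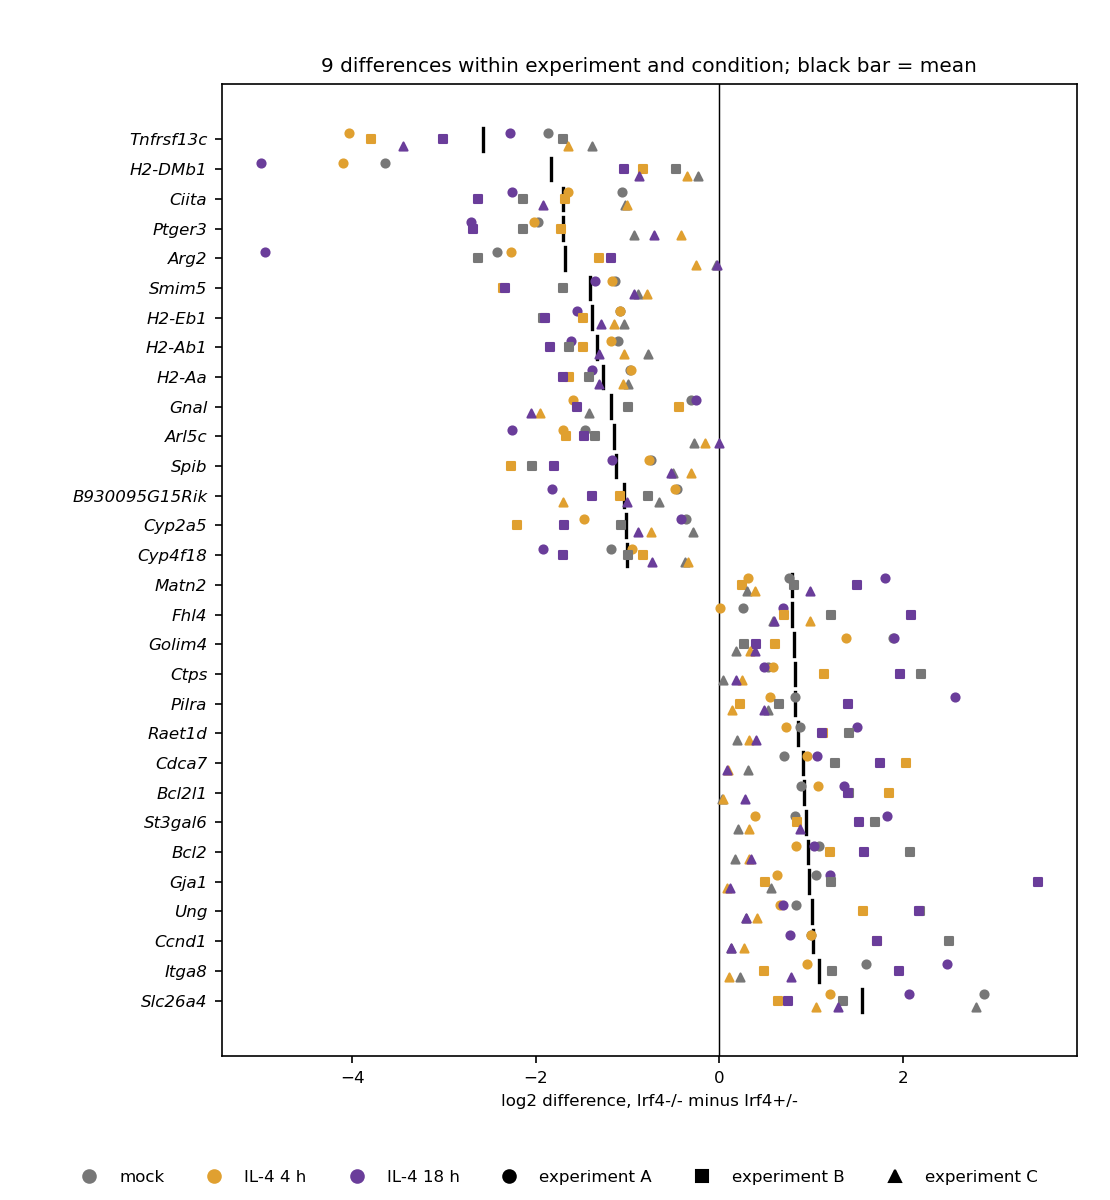
Log2 difference between Irf4-/- and Irf4+/- (x axis) for 30 called genes whose 9 differences share 1 sign, the 15 lowest and 15 highest means, with 1 point per experiment and condition and a black bar at the mean. Points of Ciita and the class II chains H2-Ab1, H2-Aa and H2-Eb1 lie close together, while those of H2-DMb1 and Arg2 spread by experiment.

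Among genes seen outside that list, chosen after their values were known, Pltp and Xlr3c stood out by their lack of overlap within experiments. Pltp, the phospholipid transfer protein, ran from 2.71 through 3.68 to 4.48 in Irf4+/- and from 1.24 through 3.00 to 3.55 in Irf4-/-, a difference of -0.98 ± 0.21 (-1.49, -0.86 and -0.58). Xlr3c, an X-linked lymphocyte-regulated gene, differed by -0.90 ± 0.20 (-0.99, -0.44 and -1.27). Both were called with the pool as a random block, at an adjusted p of 0.0366 in limma, and over their 22 alternatives the adjusted p ran from 0.000745 for Pltp and from 0.000735 for Xlr3c to 1.00.

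Several of the 15 highest genes had their largest difference in experiment B and a small one in C. Bcl2, an inhibitor of apoptosis, ran from -0.88 through 0.70 to 1.90 in Irf4+/- and from 0.85 through 1.79 to 2.24 in Irf4-/-, a difference of 0.96 ± 0.26 (0.98, 1.62 and 0.28). Its relative Bcl2l1 differed by 0.92 ± 0.28 (1.11, 1.55 and 0.12). Cyclin D1, Ccnd1, ran from 1.39 through 3.56 to 4.50 and from 3.10 through 4.02 to 4.96, and differed by 1.02 ± 0.33 (0.92, 1.98 and 0.17). These genes were called, but their genotypes separated without overlap in only 1 experiment for Bcl2 and Ccnd1. Other probes disagreed in part. For Bcl2 they gave 1.08 (2.50, 1.45 and -0.71) and 0.63 (0.83, 1.49 and -0.42), so the sign in C was opposite. For Bcl2l1 they gave 0.48 (0.18, 1.21 and 0.032) and 0.47 (-0.050, 1.49 and -0.038), so the difference lay mostly in B. Without B the difference of Ccnd1 was 0.55. Ung, the uracil-DNA glycosylase (1.01 ± 0.32), Cdca7 (0.91 ± 0.29), Gja1, which encodes connexin 43 (0.98 ± 0.28, and 0.20 under normexp correction), and the CTP synthase gene Ctps (0.82 ± 0.31) shared this order of experiments, with C the lowest.

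Other genes were higher in all 3 experiments, and for Slc26a4, Amd1, Pdk1 and Fhl4 the value in C was not the lowest by the probe used. Fhl4, a dim member of the 15 highest, differed by 0.79 ± 0.22 (0.32, 1.34 and 0.72). Slc26a4, the anion exchanger pendrin, had the highest mean among the called genes with 9 positive differences. It ran from -7.92 through -4.70 to -1.30 in Irf4+/- and from -5.21 through -3.61 to -0.56 in Irf4-/-, and differed by 1.56 ± 0.24 (2.05, 0.91 and 1.71; 2.94-fold). The gene is dim, well above background on 7 of 9 Irf4+/- arrays, and with normexp correction the difference was 0.09. Amd1, which makes the aminopropyl donor for polyamines, ran from 2.25 through 2.50 to 3.03 and from 2.71 through 2.99 to 3.64 (0.51 ± 0.14; 0.62, 0.44 and 0.45). Its genotypes did not overlap within any experiment. Pdk1, the kinase that restrains pyruvate dehydrogenase, showed the same separation with 0.48 ± 0.14 (0.49, 0.41 and 0.55), although another probe gave 0.92, 0.63 and 0.22. Matn2, a matrix protein, differed by 0.79 ± 0.16 (0.96, 0.86 and 0.55). Matn2 had its smallest value in C, as did other members of the 15 highest, the sialyltransferase St3gal6 (0.94 ± 0.20), the integrin Itga8 (1.09 ± 0.26, other probes 0.79 and 0.15), the NKG2D ligand Raet1d (0.85 ± 0.21), the inhibitory receptor Pilra (0.82 ± 0.21, another probe 1.40) and the Golgi protein Golim4 (0.81 ± 0.30, other probes 0.28 to 0.43).

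DNA replication and ribosome biogenesis genes lay higher in Irf4-/- macrophages, again unevenly by experiment. Of 38 DNA replication genes tested, 37 lay higher in Irf4-/- and 12 were called higher, against 5.95% of all genes. Their median was 0.30, made of 0.13 in A, 0.78 in B and 0.04 in C. The count of calls was 1 without A, 0 without B and 22 without C. Of all genes, 2.03%, 0.126% and 8.1% were called higher in those fits. Mcm2, a subunit of the replicative helicase, differed by 0.76 ± 0.23 and the helicase loader Cdc6 by 0.61 ± 0.26. All 28 ribosome biogenesis genes lay higher, with a median of 0.25 (0.34, 0.41 and 0.03). Of these, 9 were called higher (32.1%, against 5.95% of all genes). The count was 3 without A, 0 without B and 18 without C, against the same shares of all genes as above. Rrs1 (0.61), Nop58 (0.59) and Gnl3 (0.59) led them. Of 36 mitosis genes 2 were called higher (5.56%, against 5.95% of all genes), with a median of 0.09.

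Inflammatory chemokines lay higher in Irf4-/- macrophages in A and B. Of 19 tested inflammatory cytokines and chemokines 5 were called higher (26.3%, against 5.95% of all genes), with a median of 0.31 (0.22, 0.50 and -0.10), and 2 were called without A, 0 without B and 8 without C (against 2.03%, 0.126% and 8.1% of all genes). Of the list, 4 genes lay higher in all 3 experiments. The monocyte attractants Ccl2 (1.34 ± 0.48; 1.44, 2.66 and -0.10), Ccl7 (1.21 ± 0.45) and Ccl12 (1.21 ± 0.37) had the largest differences. Myc, a driver of growth, showed 1.36 in A, 2.28 in B and -0.35 in C. For Ccl2, Ccl7 and Myc the difference in C was not above 0. Other probes gave 1.02 and 0.69 for Myc, with C again below 0, and 1.12 for Ccl7.

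Lysosomal genes lay lower by a small median, mainly in A. Of 35 tested, 29 lay lower and 9 were called lower (25.7%, against 5.7% of all genes). Their median was -0.13 (-0.37, -0.11 and 0.02), where that of all genes was -0.02 (-0.06, -0.07 and 0.06). None was called without A or without B, and 14 without C, where 14.2% of all genes were called lower. The cathepsins Ctsh (-0.60 ± 0.23) and Ctsf (-0.53 ± 0.19) had the largest differences among them.

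Genes that IL-4 is known to act on were called in both directions on the average over conditions. Of 47 tested genes of the IL-4 signature 4 were called higher (8.51%, against 5.95% of all genes) and 5 lower (10.6%, against 5.7%), with a median of -0.19 (-0.20, -0.22 and -0.09). Without A there were 0 and 6 calls, without B 0 and 0, and without C 4 and 8. Of all genes, 2.03% were called higher and 3% lower without A, 0.126% and 0.113% without B, and 8.1% and 14.2% without C. The members with the largest differences were Rnase2a, an eosinophil-associated ribonuclease (-1.38 ± 0.24), Myc, and Aqp3, a water and glycerol channel (-0.91 ± 0.31). Rnase2a and Aqp3 were not called.

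The relatives and partners of IRF4 lay mostly below 0. The 8 other IRF family genes all lay below 0 on average (median -0.15), but above 0 by median in C (-0.47, -0.27 and 0.16). Irf5 alone was called (-0.35 ± 0.15; 12.5%, against 5.7% of all genes called lower), though not without A or without B. Of 28 tested partners and lymphoid target genes of IRF4, 6 were called lower (21.4%, against 5.7% of all genes) and 2 higher (7.14%, against 5.95%). Without A, and likewise without B, 1 was called lower and 0 higher. Of all genes, 3% were called lower without A and 0.113% without B. Beside Ciita and Spib, Prdm1, which encodes the repressor BLIMP-1, was among those called lower (-0.78 ± 0.21; -0.94, -1.16 and -0.25), as was Ikzf3, which encodes Aiolos (-0.43 ± 0.19). Another Ikzf3 probe gave 0.17, -1.66 and 0.005 in A, B and C. Interferon-stimulated genes had a median of -0.10 over 49 genes (-0.33, -0.03 and 0.08) and none was called. Oxidative phosphorylation genes had a median of 0.00 over 38 genes and none was called. Of 24 cholesterol synthesis genes 2 were called higher (8.33%, against 5.95% of all genes), at a median of 0.10.

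**Figure D4:**
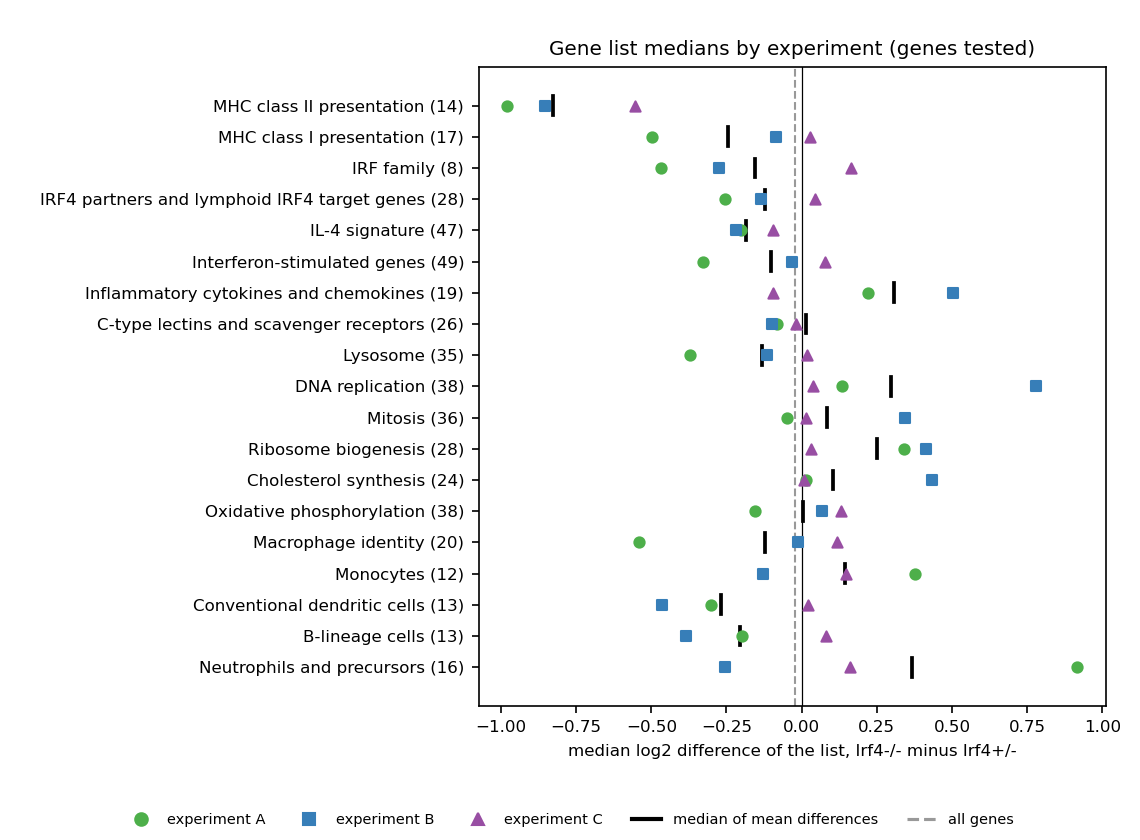
Median log2 difference between Irf4-/- and Irf4+/- (x axis) of 19 gene lists (y axis, number of genes tested in brackets), with 1 coloured marker per experiment, a black bar for the median of the mean differences and a dashed line for all genes. The class II list lies furthest left (-0.83) in the mean and by each marker is below 0, while the markers of DNA replication and ribosome biogenesis in experiment C lie near 0.

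The average over conditions did not always hold the same value in each condition. No gene was called in the test of genotype by condition (0% of genes; limma, lowest adjusted p 0.188, with 1311 genes at an unadjusted p under 0.05), so differences between the conditions below are values only. The class II median was -0.67 in mock, -0.76 at IL-4 4 h and -1.07 at 18 h. Ciita differed by -1.41, -1.45 and -2.27. Ciita thus lay lower in Irf4-/- in mock cells too.

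For several genes the mean came mostly from the late IL-4 cultures. Sema6d, a transmembrane semaphorin, differed by -0.08 in mock, -1.06 at 4 h and -1.84 at 18 h, for a mean of -0.99 ± 0.15. Tnfrsf18, which encodes the receptor GITR, differed by -0.23, -0.61 and -1.45, Rnase2a by -0.21, -1.03 and -2.89, and Kcna3, the potassium channel Kv1.3, by -0.37, -0.25 and -1.63. Papss2, which makes the sulfate donor PAPS, differed by -0.61, -0.33 and -1.64. In the other direction, Cd300e, an activating receptor of myeloid cells, differed by 0.51, 0.72 and 2.28 and Matn2 by 0.63, 0.31 and 1.43. A pooled value for each of these genes averages a difference in mock with one further from 0 at 18 h. For Papss2, Kcna3 and Matn2 the difference in mock was further from 0 than that at 4 h. The adjusted p of these genes and Pdk1 in the interaction test was 0.22 to 0.67 (limma).

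**Figure D5:**
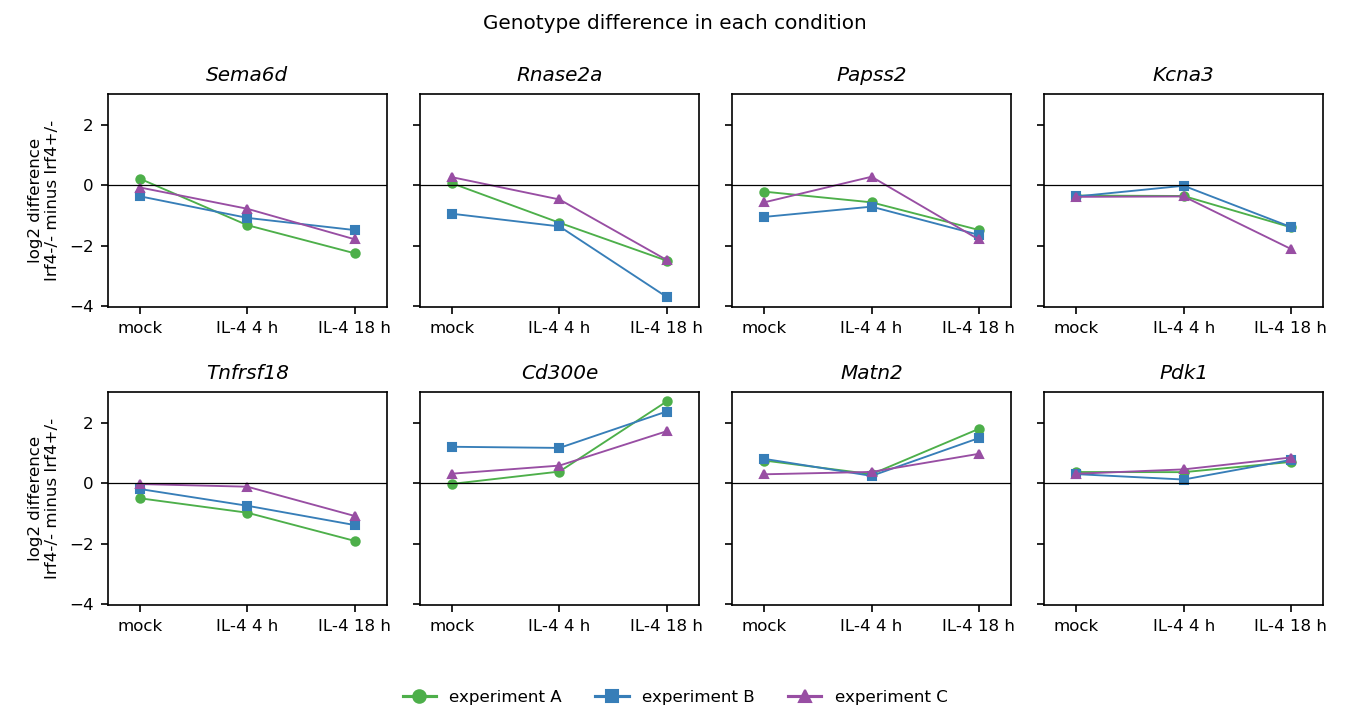
Log2 difference between Irf4-/- and Irf4+/- (y axis) of 8 genes in mock, IL-4 4 h and IL-4 18 h (x axis), 1 line per experiment. The lines of Sema6d and Tnfrsf18 lie between -0.49 and 0.21 in mock and lower at 18 h, and those of Cd300e lie higher at 18 h, while no gene passed the test of genotype by condition.

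A targeted allele brings its chromosomal neighbours with it, so the genes around Irf4 on chromosome 13 were listed. Of the 25 annotated genes on each side, 50 in all, 12 were tested, with a median of 0.09, and 9 lay higher in Irf4-/-. Mboat1, a lysophospholipid acyltransferase gene (0.73), and Gmds, which acts in GDP-fucose synthesis (0.37), were called higher. So was the cell-cycle factor E2f3 (0.38, other probes 0.12 and 0.28). Together they were 25% of the 12, against 5.95% of all genes. In A, B and C, Mboat1 differed by 0.72, 1.40 and 0.06, and E2f3 by 0.44, 0.64 and 0.07. Gmds differed by 0.37, 0.65 and 0.10. Of the 12, 1 was called higher without A, 0 without B and 4 without C. The shares of all genes were 2.03%, 0.126% and 8.1%. The share of tested genes called in either direction was 11.5% on chromosome 13 and ran from 9.33% on chromosome 4 to 16.3% on chromosome 10 over the autosomes and X.

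Some large differences belonged to 1 pool. Besides H2-DMb1, the complement gene C1qb lay between 0.89 and 1.68 on the 3 Irf4-/- arrays of A and between 3.50 and 5.67 on all others, for differences of -2.43 in A and 0.05 over B and C. In A, 41 genes differed by at least 2 on the log2 scale while B and C stayed under 1 (19 higher and 22 lower), against 8 such genes for B and 5 for C.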

How the data were processed

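RNA of 18 samples was read on single-colour Agilent arrays. Per the file headers, the authors extracted each array with Agilent Feature Extraction (9.5.1, per the submitters' processing notes), and the deposited intensity values are background-subtracted and not scaled between arrays. The authors also deposited a table of log2 values; it matched the scaling used here minus the Irf4+/- mock array of each experiment (lowest correlation 0.9999 over 23604 probes), its column medians ran from -0.18 to 0.21, and its making is not given in the labels or headers.

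Groups and letters came from the sample titles. Levels were log2 intensities less the 75th percentile of the same array over non-control spots. Of 43379 such spots per array 63.4% to 74.4% were well above background, and 63 to 182 outlier spots were left out. The 75th percentile of the intensity ran from 719 to 1961, and the number of arrays limits the precision. Spots of a probe were averaged, and 24081 probes were kept, those well above background on every array of 1 or more of the 6 groups. Of 41174 probes, 23082 were named through an accession in the RefSeq gene table, 6582 through a symbol, 3073 through a synonym and 1246 by the array's own name, and 7191 had no symbol. Each of 15081 tested genes, of 20623 named, is given by its brightest kept probe, and other probes stand beside it where they differed by over 1.5 times or in sign.

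Tests used limma 3.58.1 and statmod 1.5.0 in R 4.3.3, two-sided, with Benjamini-Hochberg adjustment over all tested genes and a threshold of 0.05, after a check on simulated data. Errors beside differences are the standard errors of the fit on 3 experiments. The letters pair the samples: the design names littermates within each experiment, and the deviations of same-letter pools correlated at 0.71, 0.71 and 0.61, so every difference was taken within a letter. Files were read and plots drawn in Python 3.11.15 (pandas 2.3.3, numpy 2.4.6, matplotlib 3.10.9).

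The comparison, the gene lists and the rule for named genes were chosen with earlier results of these data known. The rule named, since fewer than 20 genes were called over the experiments, the 15 highest and 15 lowest means among genes called with arrays as replicates and of 1 sign in all 9 differences; Irf4, Papss2, Matn2, Kcna3, Sema6d and Pdk1; up to 3 members per list with the largest difference; the 5 largest near Irf4; the 5 lowest p of the interaction test; and sex-linked genes. H2-DMa, H2-DMb2, H2-Oa, H2-Ob, Cd74, Ctss, Ifi30, Marchf1, Marchf8, Pltp, Xlr3c, Itgae, Cd79b, Prdm1, Ikzf3, Gmds, Csf1r, Spi1, Cebpa and Mertk fall outside it and were chosen after their values were seen. Alternatives were normexp (offset 50), median scaling, quantile normalization, other probe filters, the mean of probes, the deposited table, random blocks for pool or slide, each experiment or condition left out, no pairing, and trended robust moderation. Normexp without up to 8 spots per array over 50 below local background was added after seeing the data.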

Additional observations from a re-analysis of the deposited data

Results flagged for a closer look

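For 1 gene, 1700116B05Rik, the genotype difference had opposite signs in mock and after IL-4 in all 3 experiments. The difference was -0.32 in mock, 0.36 at IL-4 4 h and 0.46 at IL-4 18 h (log2, Irf4-/- minus Irf4+/-). It was therefore 0.67 higher at 4 h than in mock and 0.78 higher at 18 h than in mock. The test of genotype by condition did not call it (limma, adjusted p 0.22), and the mean over the conditions was 0.17 ± 0.14.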

How the results depend on the processing

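Over the 3 experiments 0 genes were called (limma; 871 at an unadjusted p under 0.05). Other settings called 5 genes with normexp freed of far dim spots, 6 with median scaling, 5 with trended robust moderation, 7 with arrays as replicates and the pool as a random block, 10 with the slide as a random block and 1756 with arrays as plain replicates. Leaving out 1 experiment gave 0 to 2 calls. Without the replicate block 0 genes were called, 83 at an unadjusted p under 0.05. Beside the 1756 calls with arrays as replicates, normexp gave 12, the slide as a random block 10, the pool as one 7, leaving out 1 experiment 36 to 3364, and the other settings 1192 to 2328. H2-Eb1, Ciita and Tnfrsf13c were each called under 5 alternatives besides plain arrays as replicates. The genotype by condition test called 0 genes under each alternative run. The class II median was -0.67 to -1.07, the latter with IL-4 18 h only. Signs turned for these values. With normexp, 1700116B05Rik was -0.20, Ifi30 0.0045, Sema3g -0.18 and Xist -0.028. 1700116B05Rik was -0.32 in mock only and Ctss 0.038 at IL-4 18 h only. Leaving out each experiment gave -1.22 to 0.052 for C1qb, -0.32 to 0.068 for Ctss, -0.16 to 0.046 for Ifi30 (each above 0 without A), -0.0016 to 0.39 for Irf4 and -0.040 to 0.45 for Kdm5d (each below 0 without C), and -0.53 to 1.03 for Xist (below 0 without A or B). Xist was also -0.090 with normexp freed of dim spots, -0.22 with no filter, -0.49 with the slide block, -0.14 without mock, -0.17 at 4 h only and -0.11 at 18 h only. The cause of these turns was not tested. Dim genes moved most: with normexp Slc26a4 and Tnfrsf13c lay nearer 0, as given above, and Gnal was -0.66, Cyp2a5 -0.62, Papss2 -0.55 and Fcrla -0.53.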
